A study of Mus musculus with 50 samples.

Results

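NF-kB is a family of dimeric transcription factors held in check by the I-kappa-B proteins, and the genes described here encode its subunits and inhibitors. The list holds 10 mouse genes, namely Rel, Rela, Relb, Nfkb1, Nfkb2, Nfkbia, Nfkbib, Nfkbie, Nfkbiz and Tnfaip3. Their probes were taken by symbol alone, as the array probes whose annotated gene is on the list. The list itself was drawn up with earlier results of these data known. Named probes were found for 9 of the 10 genes, among 15312 named genes measured. Nfkb1, which encodes the p105 precursor of p50, was not analysed here. Nfkbie had 2 probes and the other 8 genes had 1 each.

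The study injected female mice with CpG oligodeoxynucleotides (ODN), short phosphorothioate DNAs of which the CpG kind engages Toll-like receptor 9 (TLR9), and measured spleen RNA on 50 arrays. Each array compared spleen RNA (Cy5) with a common reference RNA pooled from mouse tissues and cells (Cy3), so a level is a log2 ratio of spleen to reference, set to a median of 0 on every array, and levels of different genes cannot be ranked against each other. BALB/c WT mice received 400 µg of CpG ODN i.p. and gave 4 spleens at each of 6 times, from 0.5 h over 1, 3, 9 and 24 h up to 72 h; 4 others received the same amount of control ODN for 3 h, and 6 were untreated. C57BL/6 mice were TNF-KO or control, 4 each, with CpG for 3 h or untreated. The labels give no age, no allele and no cell type for the TNF deletion, and no dose for the C57BL/6 mice. On the C57BL/6 CpG arrays of both genotypes another label field reads untreated, and the groups used here follow the titles. The series text speaks of 4 independent experiments per time point. Every p-value below rests on the variation among spleens within groups, pooled over all groups of a fit and moderated over genes by limma.

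Without a stimulus, NF-kB dimers sit in the cytoplasm bound to I-kappa-B proteins. TLR9 signals through the adaptor Myd88 to the IKK kinases, I-kappa-B is degraded, and the freed dimers enter the nucleus. Several of the genes they switch on encode their own inhibitors, a negative feedback known from macrophages and B cells, both of which carry TLR9 in mouse spleen.

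The ODNs are shown because the control mixture differs from the CpG mixture by a few bases. They are written 5′ to 3′ with each CG dinucleotide in capitals.
CpG ODN 1555: gctagaCGttagCGt
CpG ODN 1466: tcaaCGttga
control ODN 1612: gctagatgttagCGt
control ODN 1471: tcaagcttga
Counted from the 5′ end, ODN 1612 differs from ODN 1555 by C7T and keeps the CG that starts at position 13. ODN 1471 differs from ODN 1466 by C5G and G6C and holds no CG.

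Promoter sequences were at hand for 7 of the 9 measured genes (RefSeq, build GRCm38.p6, 300 bases per window). Both strands were searched for the 10-base kappa-B consensus, the DNA motif that NF-kB dimers are known to bind. A match was found for 5 of the 7 genes (Nfkb2, Rel, Nfkbia, Nfkbie and Tnfaip3), and Rela and Nfkbib had none. Of all genes with a window, 5.14% held a match, and of all 32851 windows, 4.51%. The 130 bases before the annotated start are printed for all 7 genes, on the strand of the gene. Matches are in capitals (overlapping matches run together), so that genes with a match can be read beside the 2 without. Of the 7, all but Nfkbib passed over untreated at 1 h, Rela among them without a match, when 3.01% of all genes rose. A link between match and response was not tested.
Nfkbia: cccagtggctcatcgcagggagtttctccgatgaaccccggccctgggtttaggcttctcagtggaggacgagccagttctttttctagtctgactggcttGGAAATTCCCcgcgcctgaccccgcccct
Tnfaip3: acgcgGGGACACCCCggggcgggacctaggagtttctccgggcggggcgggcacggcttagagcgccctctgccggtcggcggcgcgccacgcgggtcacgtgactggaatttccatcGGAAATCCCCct
Nfkb2: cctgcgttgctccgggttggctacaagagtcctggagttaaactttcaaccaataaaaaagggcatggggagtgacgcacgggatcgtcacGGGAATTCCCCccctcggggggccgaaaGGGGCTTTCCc
Rel: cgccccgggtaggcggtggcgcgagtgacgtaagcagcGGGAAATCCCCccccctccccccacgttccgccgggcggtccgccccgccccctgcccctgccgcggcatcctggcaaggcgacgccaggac
Nfkbie: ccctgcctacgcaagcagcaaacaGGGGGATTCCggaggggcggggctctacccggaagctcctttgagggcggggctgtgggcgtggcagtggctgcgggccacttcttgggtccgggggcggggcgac
Rela: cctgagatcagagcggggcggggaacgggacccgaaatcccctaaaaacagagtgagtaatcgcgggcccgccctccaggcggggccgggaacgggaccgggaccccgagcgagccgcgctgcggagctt
Nfkbib: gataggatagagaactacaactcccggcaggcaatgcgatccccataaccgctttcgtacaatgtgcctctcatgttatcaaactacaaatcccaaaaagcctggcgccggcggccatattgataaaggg
These stretches lie at chr12:55492648-55492777 (minus strand) for Nfkbia, chr10:19015411-19015540 (minus) for Tnfaip3, chr19:46304607-46304736 (plus) for Nfkb2, chr11:23770970-23771099 (minus) for Rel, chr17:45555570-45555699 (plus) for Nfkbie, chr19:5637411-5637540 (plus) for Rela and chr7:28766645-28766774 (minus) for Nfkbib. The matches nearest the start lay 3 to 12 bases before it for Tnfaip3, 2 to 11 for Nfkb2 and 20 to 29 for Nfkbia, while those of Rel and Nfkbie lay 82 to 92 and 97 to 106 bases before it. Tnfaip3 had a second window and Nfkb2 had 2 further ones at other annotated starts. A match is a string of letters and shows no binding.

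The arrays carried 27619 to 30590 values each, and an array correlated with the others of its group at a median r of 0.857 to 0.943. Lymphoid markers were well above the reference RNA on all arrays: the mean log2 ratio of 7 B cell markers was 2.12 to 3.63 over the arrays and that of 7 T cell markers 1.05 to 2.93. A list of 12 pancreatic enzyme genes ranged over 0.22 to 6.85 between arrays, with values of 0.56 to 6.30 at 0.5 h and 0.47 to 5.72 in untreated BALB/c spleens, and its part in the results was not tested. The titles also number the arrays, and adjacent numbers form 11 runs of arrays. The 0.5 h arrays share a run with 5 of the 6 untreated BALB/c arrays, the 1 h arrays lie in 2 runs that hold untreated arrays, and for 72 h and control ODN the run and the group cannot be told apart from untreated. All CpG time points and the control ODN were set against the same 6 untreated spleens, so these comparisons share their reference.

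At 0.5 h after CpG, 3 of the 9 genes had risen over untreated BALB/c spleen (limma, adjusted p under 0.05), Nfkbiz, Tnfaip3 and Nfkbia, and 0 had fallen. Among all 15264 genes tested 0.249% rose, and the median log2 change was 0.75 over the 9 genes and 0.07 over all genes. Nfkbiz encodes I-kappa-B-zeta, a nuclear protein that binds p50 and is needed for a subset of late target genes such as Il6. Its log2 ratio was 1.95, 1.86, 0.97 and 0.82 at 0.5 h, against -1.78 to -1.02 (median -1.17) in the 6 untreated spleens. No 0.5 h value came near the untreated range, and the log2 change was 2.66 ± 0.21 (SE; 6.32-fold; adjusted p = 1.18e-10). Tnfaip3 encodes A20, an enzyme that edits ubiquitin chains on signalling proteins upstream of IKK. It read 2.85, 2.52, 1.62 and 1.71 at 0.5 h, against 0.18 to 0.61 (median 0.39) in untreated spleens, a log2 change of 1.76 ± 0.22 (adjusted p = 4.6e-06).

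Nfkbia encodes I-kappa-B-alpha, the classical inhibitor that is degraded and then made again. It read 2.00, 2.17, 1.34 and 1.48 at 0.5 h, against 0.15 to 1.17 (median 0.44) in untreated spleens, with a log2 change of 1.14 ± 0.19 (2.21-fold; adjusted p = 0.000936). The 2 groups did not overlap for any of these 3 genes, and replicates 1 and 2 were the higher pair in each. Within the run that holds all 0.5 h arrays and 5 untreated ones, the log2 change was 2.55 for Nfkbiz (adjusted p = 8.26e-05), 1.74 for Tnfaip3 (adjusted p = 0.00424) and 1.05 for Nfkbia (adjusted p = 0.144). With only the 2 compared groups in the fit, the call of Nfkbia at 0.5 h was lost (adjusted p = 0.0853). The 6 remaining genes did not pass the test at 0.5 h. Among them Relb and Nfkb2 both had a log2 change of 0.75 (SE 0.30 and 0.29; adjusted p = 0.51 for each). Cell type markers overlapped between 0.5 h and untreated spleens in all lists, and those of neutrophils averaged 2.13 to 3.05 at 0.5 h, against 1.80 to 2.67. In whole spleen, fewer cells of a type and less RNA per cell cannot be told apart, and the part of these markers was not tested.

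**Figure D1:**
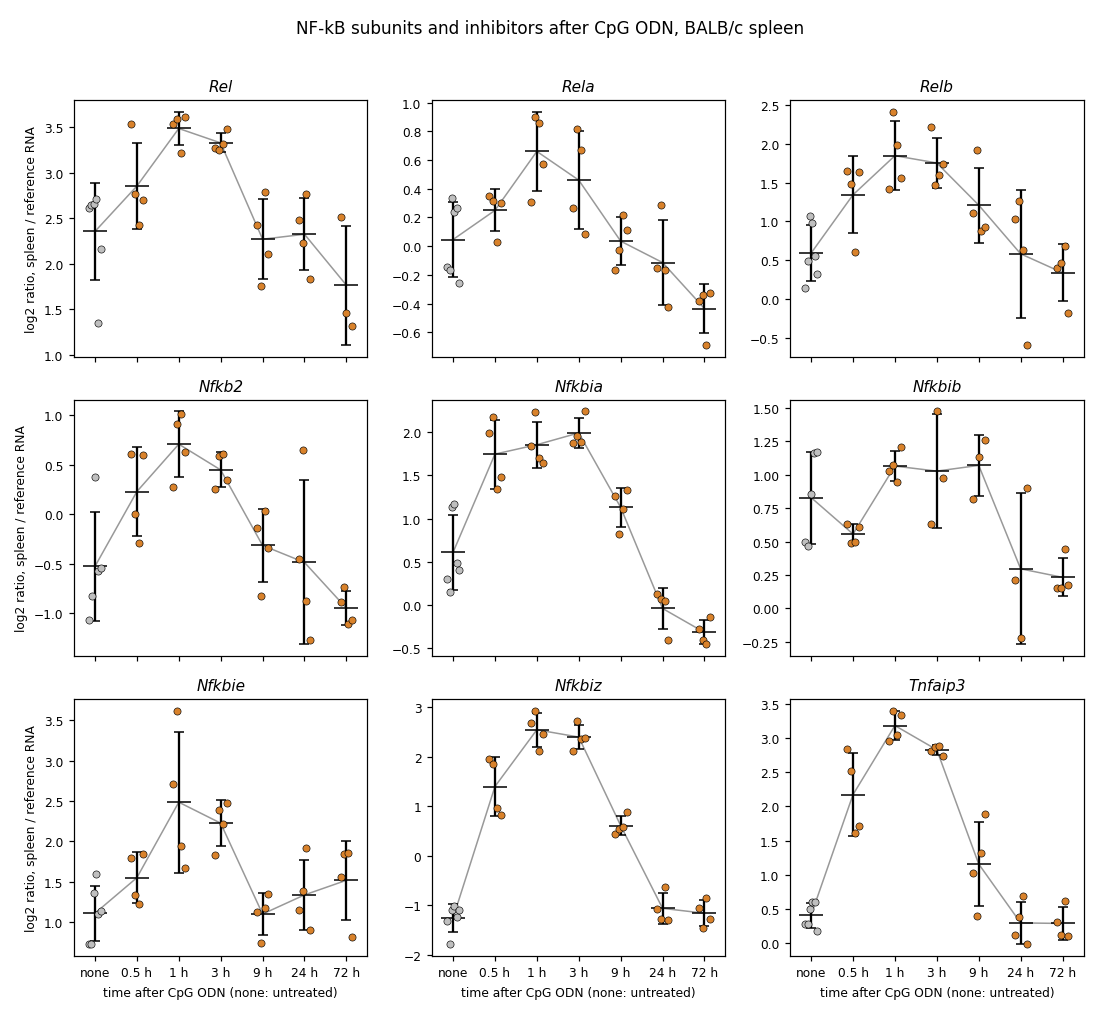
Log2 ratio of spleen to reference RNA (vertical axis, own range in each panel) for 9 genes in untreated BALB/c spleens and at 0.5 to 72 h after CpG ODN (horizontal axis, time points evenly spaced, not to scale). Dots are arrays, bars are mean ± SD, and the grey line joins means; Nfkbiz, Tnfaip3 and Nfkbia lie above all untreated values at 0.5 h, and the other 6 genes overlap with untreated there.

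At 1 h, 8 of the 9 genes had risen, when 3.01% of all genes rose, and 0 had fallen. The median log2 change was 1.25 over the 9 genes and 0.05 over all genes. Nfkbiz was again the largest of the 9, with 2.69, 2.93, 2.11 and 2.46 at 1 h against the same untreated range, a log2 change of 3.80 ± 0.21 (adjusted p = 6.08e-15). It ranked 7th of all genes at 0.5 h and at 1 h by size of rise. Tnfaip3 read 2.96, 3.39, 3.04 and 3.34 at 1 h, a log2 change of 2.77 ± 0.22 over untreated (6.84-fold; adjusted p = 5.56e-11). Between 0.5 and 1 h, Nfkbiz gained a further 1.15 ± 0.23 (adjusted p = 0.00568) and Tnfaip3 1.01 ± 0.24 (adjusted p = 0.0364), the 2 genes of the 9 called higher at 1 h than at 0.5 h, when 0.642% of all genes rose. Both calls were lost without replicate 2 at 1 h (adjusted p = 0.0524 and 0.148) or replicate 3 at 0.5 h (adjusted p = 0.0516 and 0.195), and that of Tnfaip3 also without replicate 4 at 0.5 h, replicate 3 at 1 h or replicate 4 at 1 h (adjusted p = 0.13, 0.0525 and 0.114). Nfkbia hardly moved in that interval (log2 change 0.11, 95% interval -0.32 to 0.54).

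All 4 measured subunits passed over untreated at 1 h. Set directly against 0.5 h, their log2 changes at 1 h were 0.63 for Rel, 0.50 for Relb, 0.48 for Nfkb2 and 0.41 for Rela, and none passed (adjusted p of 0.483 to 0.632). Rel encodes c-Rel, the subunit most tied to lymphocytes. It read 3.53, 3.58, 3.21 and 3.61 at 1 h, against 1.35 to 2.71 (median 2.63) in untreated spleens, with all 4 above all 6 and a log2 change of 1.13 ± 0.28 (adjusted p = 0.0132). Relb encodes the partner of p52 in the slower, non-canonical arm. It read 1.42, 2.41, 1.99 and 1.56 at 1 h, against 0.14 to 1.07 (median 0.53) in untreated spleens, a log2 change of 1.25 ± 0.30 (adjusted p = 0.0097). The groups did not overlap for either gene.

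Nfkb2 encodes p100, which acts as an inhibitor until it is cut to p52. It read 0.27, 0.91, 1.01 and 0.63 at 1 h, against -1.07, -0.82, 0.38, -0.57 and -0.55 in the 5 untreated spleens with a value, a log2 change of 1.23 ± 0.29 (adjusted p = 0.0106) in which untreated replicate 4 (0.38) overlapped. Rela encodes p65, the subunit with the main activation domain of most canonical dimers, and had the smallest of the 8 rises. It read 0.31, 0.90, 0.86 and 0.57 at 1 h, against -0.26 to 0.33 (median 0.05) in untreated spleens, a log2 change of 0.61 ± 0.18 (1.53-fold; adjusted p = 0.048) with 1 of the 4 within the untreated range. Leaving out replicate 2, 3 or 4 at 1 h, or untreated replicate 1, 2 or 6, ended the call of Rela (adjusted p of 0.0623 to 0.221). Replicate 2 at 1 h also decided the calls of Nfkb2, Rel and Relb, whose adjusted p without it was 0.0554, 0.0573 and 0.091.

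Among the cytoplasmic inhibitors, Nfkbia read 1.84, 2.24, 1.70 and 1.65 at 1 h, a log2 change of 1.25 ± 0.19 (adjusted p = 4.66e-05). Nfkbie encodes I-kappa-B-epsilon, another inhibitor that NF-kB is known to induce. Its probe with most values read 2.71, 3.62, 1.94 and 1.67 at 1 h, against 0.73 to 1.59 (median 1.12) in untreated spleens, a log2 change of 1.38 ± 0.29 (adjusted p = 0.0026). The other Nfkbie probe had values on 2 of the 4 arrays at 1 h, replicates 3 and 4 at 0.04 and 1.06, and gave a log2 change of -0.17 (adjusted p = 0.879 over all named probes), so the 2 probes differed in sign at 1 h. Nfkbib encodes I-kappa-B-beta, which is known as the inhibitor that NF-kB does not readily induce. It read 1.03, 1.07, 0.95 and 1.21 at 1 h, against 0.47 to 1.17 in 5 untreated spleens, a log2 change of 0.24 (95% interval -0.18 to 0.65; adjusted p = 0.589). Nfkbib was the only one of the 9 genes that passed the test in none of the 20 comparisons.

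Markers of other cells moved with the 1 h group. The mean log2 ratio of 11 neutrophil markers was 3.20 to 4.02 at 1 h, against 1.80 to 2.67 in untreated spleens, and that of 6 platelet and megakaryocyte markers 2.61 to 3.00, against 1.62 to 2.24. B cell markers overlapped between the groups, at 2.85 to 3.57 at 1 h and 2.59 to 3.37 untreated. The part of these lists in the results was not tested. Within the first of the 2 runs that hold 1 h and untreated arrays the log2 change was 3.96 for Nfkbiz, 2.74 for Tnfaip3 and 1.34 for Nfkbia, and within the other 4.07, 2.91 and 1.52, while Rela passed in neither. Scaling all arrays to the same spread left 5 of the 8 rises at 1 h (Rel, Rela and Relb no longer passed).

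At 3 h, 7 of the 9 genes stood above untreated, when 6.82% of all genes rose, and the median log2 change was 1.12 over the 9 genes and -0.03 over all genes. Nfkbiz read 2.12, 2.72, 2.37 and 2.38 at 3 h, a log2 change of 3.66 ± 0.21 (12.6-fold; adjusted p = 3.28e-15), and ranked 22nd of all genes. Tnfaip3 read 2.81, 2.87, 2.89 and 2.74, a log2 change of 2.42 ± 0.22 (adjusted p = 3.54e-10), and had the tightest group of the time course (SD 0.07). Nfkbia had its highest mean at 3 h, 1.99 ± 0.17 (SD, n = 4), with a log2 change of 1.39 ± 0.19 (2.61-fold; adjusted p = 1.85e-06). Rel, Relb, Nfkb2 and Nfkbie had log2 changes of 0.97, 1.16, 0.97 and 1.12 (SE 0.28 to 0.30; adjusted p of 0.00735 to 0.027). Here both Nfkbie probes rose, the other one by 1.22 on the log2 scale (adjusted p = 0.0198 over all named probes).

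Rela no longer passed at 3 h (log2 change 0.41, 95% interval 0.05 to 0.78; adjusted p = 0.165). No gene of the 9 differed between 3 h and 1 h, when 10.1% of all genes did in either direction (limma; 0 of the 9 had an unadjusted p under 0.05). The largest difference was that of Tnfaip3, a log2 change of -0.35 (95% interval -0.85 to 0.14; adjusted p = 0.391). With the run of arrays as a fixed block, 4 of the 7 rises at 3 h were kept, and Nfkb2, Rel and Relb no longer passed although their log2 changes were 1.03, 0.98 and 1.18. The call of Nfkb2 was also lost without untreated replicate 1, 2 or 5 or without replicate 2 or 3 at 3 h (adjusted p of 0.0503 to 0.0877), and that of Rel without untreated replicate 5 or replicate 4 at 3 h (adjusted p = 0.0587 and 0.0591). Within the run that holds 2 arrays of 3 h and 1 untreated array, Nfkbiz (log2 change 4.16), Tnfaip3 (2.53), Nfkbia (1.92), Nfkbie (1.61), Nfkb2 (1.29) and Relb (1.17) passed. Neutrophil markers averaged 2.93 to 3.16 at 3 h, against 1.80 to 2.67 in untreated spleens, and dendritic cell markers lay just below the untreated range, and their part at 3 h was not tested.

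**Figure D2:**
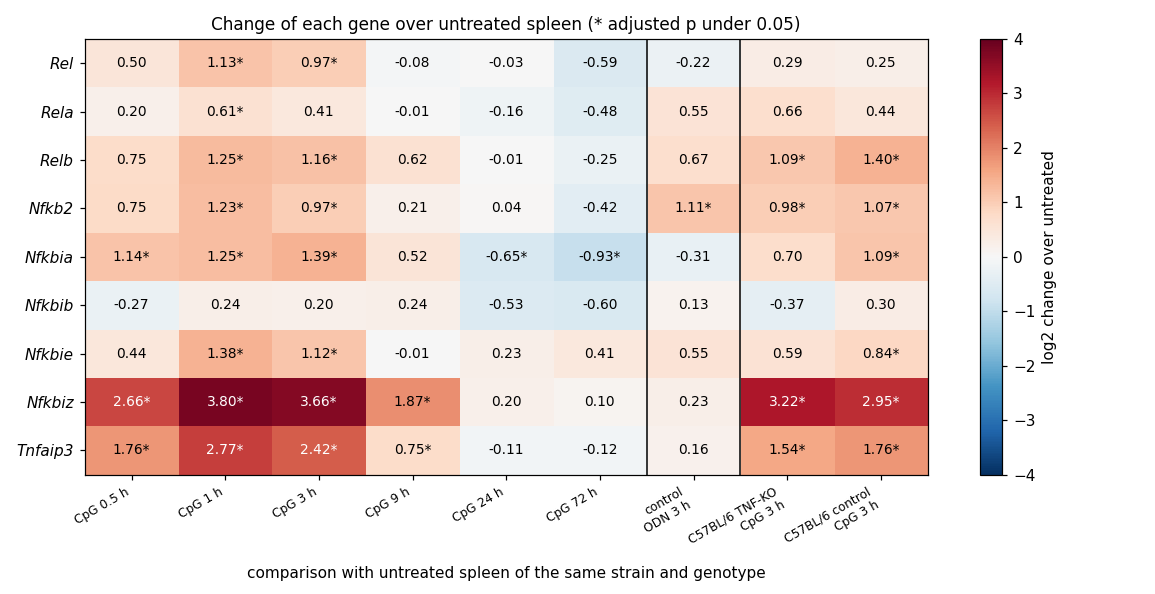
Log2 change over untreated spleen of the same strain and genotype for 9 genes (rows) in 9 comparisons (columns: BALB/c after CpG ODN by time, BALB/c after control ODN, and C57BL/6 TNF-KO and control after CpG). Red is higher and blue lower than untreated on the scale at the right, and an asterisk marks an adjusted p under 0.05; Nfkbiz and Tnfaip3 hold the largest rises, and Nfkbia the only 2 falls called.

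At 9 h 2 genes of the 9 had risen over untreated, when 4.19% of all genes rose. Nfkbiz read 0.43, 0.54, 0.59 and 0.88 at 9 h, still above all 6 untreated spleens, with a log2 change of 1.87 ± 0.21 (3.65-fold; adjusted p = 3.28e-08). Tnfaip3 read 1.03, 0.40, 1.31 and 1.89, which overlapped the untreated range, with a log2 change of 0.75 ± 0.22 (adjusted p = 0.0316). Without replicate 4 at 9 h that change was 0.50 (adjusted p = 0.203), and leaving out replicate 1 or 3 at 9 h or untreated replicate 1, 2 or 6 also ended the call (adjusted p of 0.0565 to 0.107). No 9 h array shares a run with an untreated one, and the call was also lost with the run as a fixed block (0.77; adjusted p = 0.706) or the replicate block (0.74; adjusted p = 0.0972). The other 7 genes did not pass, and Relb and Nfkbia lay highest among them (log2 changes 0.62 and 0.52; adjusted p = 0.268 and 0.104). Neutrophil markers averaged 3.19 to 3.65 at 9 h, against 1.80 to 2.67 in untreated spleens, T cell markers 1.05 to 1.63, against 1.72 to 2.22, and dendritic cell markers 1.11 to 1.13, against 1.22 to 1.47. Their part at 9 h was not tested.

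Set against 3 h, 3 of the 9 genes had fallen at 9 h, when 0.819% of all genes fell. These were the 3 genes that had passed at 0.5 h. Nfkbiz fell by 1.79 on the log2 scale (SE 0.23; adjusted p = 1.94e-05), Tnfaip3 by 1.67 (SE 0.24; adjusted p = 0.000125) and Nfkbia by 0.86 (SE 0.21; adjusted p = 0.0333). The groups did not overlap for any of the 3, but leaving out any 1 array of either time point other than replicate 4 at 9 h ended the call of Nfkbia (adjusted p of 0.0558 to 0.136). Nfkbie, Rel and Nfkb2 also had all 9 h values below all 3 h values, with log2 changes of -1.13, -1.06 and -0.76 that missed the threshold (adjusted p = 0.0719, 0.0869 and 0.364).

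The same 3 genes fell again between 9 and 24 h, when 2.05% of all genes fell. Nfkbiz fell by 1.67 (SE 0.23; adjusted p = 1.53e-05), to -1.07, -1.27, -0.62 and -1.29 at 24 h. Nfkbia fell by 1.17 (SE 0.21; adjusted p = 0.000756) and Tnfaip3 by 0.86 (SE 0.24; adjusted p = 0.0282). The Tnfaip3 call was lost without replicate 3 or 4 at 9 h or replicate 1 or 2 at 24 h (adjusted p of 0.0509 to 0.146). At 24 h, Nfkbiz and Tnfaip3 had log2 changes over untreated of 0.20 (95% interval -0.22 to 0.62) and -0.11 (-0.56 to 0.34), and neither passed.

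Nfkbia went below its untreated level late in the course. It read 0.12, 0.07, 0.04 and -0.40 at 24 h and -0.29, -0.41, -0.45 and -0.14 at 72 h, against 0.15 to 1.17 in untreated spleens, and all 8 late values lay below all 6 untreated ones. At 24 h the log2 change was -0.65 ± 0.19 (1.57-fold lower; adjusted p = 0.0293), the 1 fall among the 9 genes when 1.62% of all genes fell. At 72 h it was -0.93 ± 0.19 (1.90-fold lower; adjusted p = 0.00209), again the 1 fall among the 9 when 4.16% of all genes fell. With the run as a fixed block the 24 h change shrank to -0.18 (adjusted p = 0.887), a fit that reaches the untreated arrays only through the 3 h arrays. The 24 h call was also lost without untreated replicate 3 or 4 or without replicate 3 or 4 at 24 h (adjusted p of 0.0701 to 0.0791).

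Rela and Nfkbib also had all 4 values at 72 h below every untreated value, but missed the threshold (log2 changes -0.48 and -0.60; adjusted p = 0.0748 and 0.0537). No gene of the 9 differed between 72 and 24 h, when 3.33% of all genes did in either direction (0 of the 9 had an unadjusted p under 0.05). Marker lists also moved late. Monocyte and macrophage markers averaged 2.49 to 2.97 at 24 h and 2.32 to 2.99 at 72 h, against 1.51 to 2.27 in untreated spleens, and erythroid markers 3.54 to 4.04 at 24 h, against 4.10 to 4.49. No T cell list mean at 72 h reached the untreated range (group mean 1.33 against 1.97), and the proliferating cell list averaged 0.25 to 0.82 at 72 h, against at most 0.00 in untreated spleens. B cell markers overlapped, at 2.12 to 2.76 at 72 h, against 2.59 to 3.37. Their part in the late falls was not tested.

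Over the whole course, 7 of the 9 genes had their largest change over untreated at 1 h. Nfkbia had it at 3 h. Nfkbib, which never passed, had its largest change at 72 h, downward (-0.60), and its highest value over untreated at 9 h (0.24). The 1 h values lay above all 0.5 h values for Nfkbiz, Tnfaip3 and Nfkbib and overlapped with them for the other 6 genes. Of these 3, Nfkbib did not pass between the 2 times. The share of all genes that separate in this way was not counted, here or for other groups said not to overlap.

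The control ODN at 3 h asks which changes need the CpG mixture rather than injected DNA. Nfkb2 was the 1 gene of the 9 that rose after control ODN, when 1.05% of all genes rose. It read 1.10, 0.49, 0.77 and -0.02 after control ODN, against the untreated values given above, a log2 change of 1.11 ± 0.29 (2.16-fold; adjusted p = 0.0491). This call was lost when any 1 of untreated replicates 1, 2, 5 and 6 or of control ODN replicates 1, 2 and 3 was left out (adjusted p of 0.0906 to 0.215), and 1 untreated spleen overlapped the control ODN values. Erythroid markers averaged 4.53 to 5.16 after control ODN, against 4.10 to 4.49 in untreated spleens, and platelet and megakaryocyte markers 2.27 to 3.11, against 1.62 to 2.24, and their part was not tested. Rela read 0.87, 0.72, 0.79 and -0.01 after control ODN, with a log2 change of 0.55 ± 0.18 (adjusted p = 0.0857). It passed without replicate 4, at a log2 change of 0.75 (adjusted p = 0.00812).

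Set directly against control ODN at 3 h, CpG gave a rise in 4 of the 9 genes, when 7.4% of all genes rose. Nfkbiz read 2.12 to 2.72 after CpG, against -1.27 to -0.72 after control ODN, a log2 change of 3.42 ± 0.23 (10.7-fold; adjusted p = 3.24e-13). Tnfaip3 read 2.74 to 2.89 after CpG, against 0.16 to 0.76 after control ODN, a log2 change of 2.26 ± 0.24 (adjusted p = 1.8e-08). Nfkbia and Rel followed with log2 changes of 1.70 ± 0.21 (adjusted p = 3.59e-07) and 1.20 ± 0.30 (adjusted p = 0.00569). The CpG and control ODN values did not overlap for any of the 4.

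Nfkb2, Relb and Rela did not differ detectably between the 2 mixtures. Neither did Nfkbie by its probe with most values, except with arrays scaled to the same spread (log2 change 0.87, adjusted p = 0.0276). Nfkb2 averaged 0.45 ± 0.18 after CpG and 0.59 ± 0.47 after control ODN (SD, n = 4 each), a log2 change of -0.14 (95% interval -0.77 to 0.49). Relb had a log2 change of 0.48 (95% interval -0.18 to 1.14) and Rela of -0.13 (-0.53 to 0.26). For Nfkbie the 2 probes differed: 0.57 ± 0.31 (adjusted p = 0.209) for the one with most values and 1.58 ± 0.46 (adjusted p = 0.0182) for the other, which had values on 2 of the 4 control ODN arrays. All control ODN arrays lie in 1 run and no CpG 3 h array is in it, so the mixture cannot be told apart from the run. B cell markers averaged 2.43 to 2.76 after CpG, against 2.81 to 3.63 after control ODN, and monocyte and macrophage markers 1.89 to 2.10, against 2.20 to 2.95. Platelet and megakaryocyte markers averaged 1.57 to 2.10 after CpG, against 2.27 to 3.11 after control ODN, and the part of the 3 lists was not tested.

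**Figure D3:**
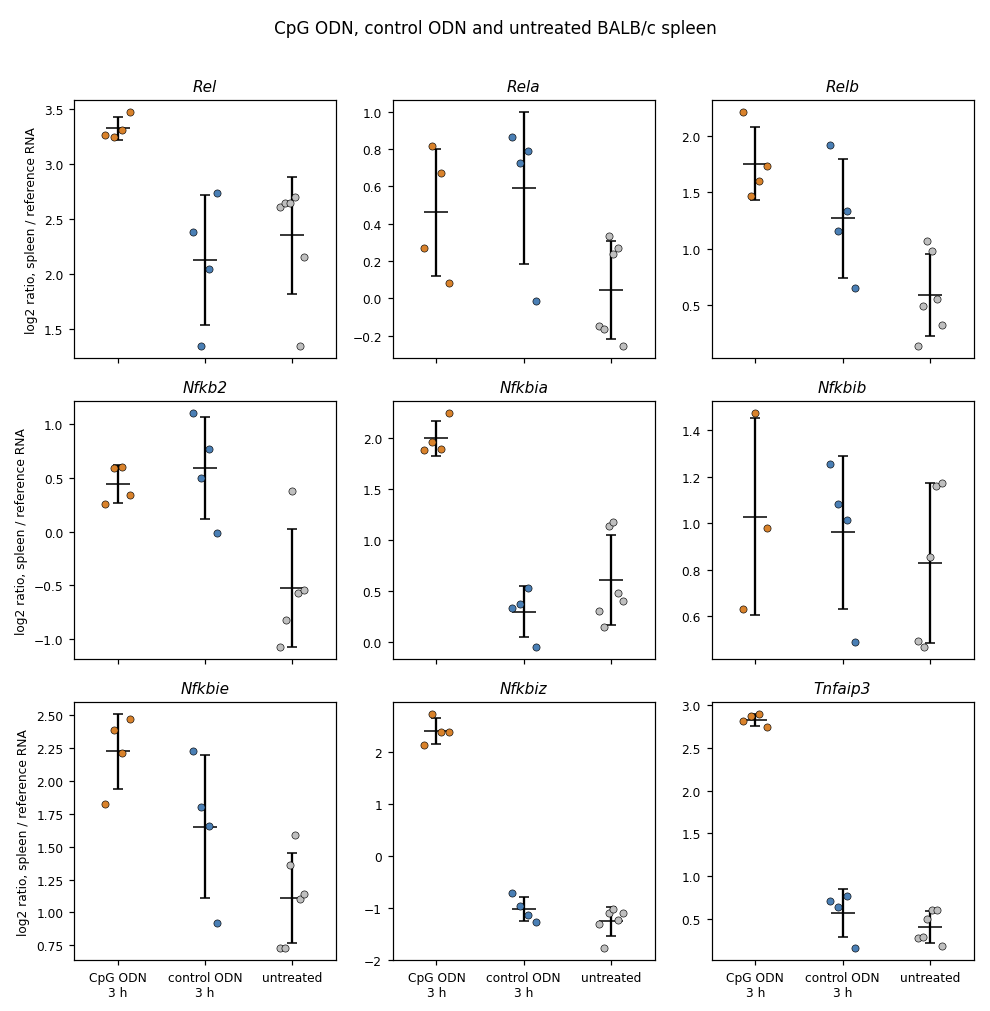
Log2 ratio of spleen to reference RNA (vertical axis, own range in each panel) for 9 genes in BALB/c spleens 3 h after CpG ODN, 3 h after control ODN, and untreated. Dots are arrays and bars mean ± SD; Nfkbiz, Tnfaip3, Nfkbia and Rel separate CpG from control ODN, while Nfkb2 lies at a similar height after both.

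The C57BL/6 arrays ask whether the response needs TNF, a cytokine that itself signals to NF-kB. The targeted gene was checked first. Tnf read 0.43, -0.35, -0.45 and -0.31 in CpG-treated TNF-KO spleens, against 4.30, 3.61, 4.59 and 3.15 in CpG-treated controls. Untreated, it read -0.61, -0.09, -0.30 and 0.09 in TNF-KO spleens, against 0.77, 0.62, 0.78 and 0.58 in controls. Tnf was lower by 4.08 on the log2 scale in TNF-KO than in control after CpG (log2 change -4.08; adjusted p = 1.32e-07), and every TNF-KO array lay below every control array of the same treatment. The files do not say which part of the gene the probe covers.

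In TNF-KO spleens, CpG raised 4 of the 9 genes at 3 h, when 3.42% of all genes rose. Nfkbiz read 2.89, 2.26, 2.21 and 2.33 after CpG, against -0.47, -0.71, -0.96 and -1.07 untreated, a log2 change of 3.22 ± 0.18 (9.35-fold; adjusted p = 2.28e-09). Tnfaip3 read 3.08, 2.22, 2.07 and 1.88 after CpG, against 0.67, 0.80, 1.09 and 0.55 untreated, a log2 change of 1.54 ± 0.22 (adjusted p = 0.00021). Relb rose by 1.09 ± 0.25 and Nfkb2 by 0.98 ± 0.22 (adjusted p = 0.0129 each), and the groups did not overlap for these 4 genes. For Relb they nearly touched, at 1.5824 for the lowest CpG value and 1.5816 for the highest untreated value. The Nfkb2 call was lost without CpG-treated TNF-KO replicate 1 (adjusted p = 0.0627), and both the Nfkb2 and the Relb call with the run as a fixed block (adjusted p = 0.0601 and 0.0566) or with only the compared groups in the fit (adjusted p = 0.0611 and 0.0806). Nfkbia stood just outside the threshold, at 1.79, 1.85, 2.10 and 1.75 after CpG, against 1.26, 1.33, 1.26 and 0.84 untreated, with no overlap (log2 change 0.70 ± 0.19; adjusted p = 0.0508). It passed under 6 other settings (adjusted p of 0.0205 to 0.0471), among them the run as a fixed block (0.0314) or a random block (0.0317).

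In C57BL/6 controls, CpG raised 6 of the 9 genes at 3 h, when 4.97% of all genes rose. Nfkbiz read 2.07, 1.91, 2.00 and 1.87 after CpG, against -0.86, -1.11, -0.84 and -1.17 untreated, a log2 change of 2.95 ± 0.18 (7.75-fold; adjusted p = 1.14e-08). Tnfaip3 rose by 1.76 ± 0.22 (adjusted p = 4.33e-05), Relb by 1.40 ± 0.25 (adjusted p = 0.00126), Nfkbia by 1.09 ± 0.19 (adjusted p = 0.00131), Nfkb2 by 1.07 ± 0.22 (adjusted p = 0.00482) and Nfkbie by 0.84 ± 0.22 (adjusted p = 0.0247). The CpG and untreated values did not overlap for any of the 6. The Nfkbie call was lost without CpG replicate 1, 2 or 3 or untreated replicate 2 or 4 (adjusted p of 0.067 to 0.0769). The other Nfkbie probe gave a log2 change of -0.05 in TNF-KO spleens (adjusted p = 0.97) and 1.67 in controls (adjusted p = 0.00234), and its difference of responses was -1.73 ± 0.44 (adjusted p = 0.363), all over the named probes. Rel and Rela did not pass in either genotype (Rel 0.29 in TNF-KO and 0.25 in controls, Rela 0.66 in TNF-KO and 0.44 in controls, as log2 changes).

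Tested directly, the CpG response of TNF-KO spleens differed from that of controls in none of the 9 genes, when 0.0268% of all genes differed, and none of the 9 had an unadjusted p under 0.05. Counts in this paragraph take 1 probe per gene, for Nfkbie the probe with most values. The other Nfkbie probe averaged 0.89 untreated and 0.84 after CpG in TNF-KO spleens, against 0.12 and 1.79 in controls. Its difference of responses, given above, missed the threshold after adjustment only over all named probes. For Nfkbiz the difference of responses was 0.27 (95% interval -0.26 to 0.80), for Tnfaip3 -0.23 (-0.87 to 0.42), for Relb -0.31 (-1.04 to 0.43) and for Nfkbia -0.39 (-0.97 to 0.18), on the log2 scale. These intervals bound the difference but do not show that the responses were alike. None of the 9 genes passed between untreated TNF-KO and untreated control spleens, when 0.555% of all genes differed, and 0 had an unadjusted p under 0.05. None passed between CpG-treated TNF-KO and CpG-treated control spleens either, when 0.361% of all genes differed, although the 4 Nfkbiz values in TNF-KO lay above the 4 in controls (2.21 to 2.89 against 1.87 to 2.07; log2 change 0.46 ± 0.18; adjusted p = 0.302). By the probes counted, Nfkbiz was the 1 gene of the 9 with an unadjusted p under 0.05. The other Nfkbie probe ranged over 0.41 to 1.42 in CpG-treated TNF-KO spleens, against 1.24 to 2.39 in CpG-treated controls.

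Within runs that held both treatments, the Nfkbiz change was 3.19 and 3.40 in TNF-KO and 2.84 to 3.18 in controls, and that of Tnfaip3 1.05 and 1.33 in TNF-KO and 1.68 to 2.09 in controls. Marker lists moved with genotype and with CpG, and their part was not tested. Proliferating cell markers averaged -2.13 to -1.15 in CpG-treated TNF-KO spleens, against -1.49 to -0.34 in CpG-treated controls, with overlap. Monocyte and macrophage markers averaged 2.79 to 3.01 in the same TNF-KO spleens, against 1.70 to 2.42 in those controls, with no overlap. Untreated, erythroid markers averaged 2.53 to 4.16 in TNF-KO spleens, against 4.08 to 5.07 in controls, with overlap. After CpG, neutrophil markers averaged 3.37 to 4.17 in TNF-KO spleens, against 1.52 to 3.40 untreated, and 3.83 to 4.88 in controls, against 2.68 to 3.37 untreated. B cell markers averaged 2.81 to 3.03 after CpG in TNF-KO spleens, against 3.22 to 3.59 untreated, and 2.77 to 3.08 in controls, against 3.19 to 3.35 untreated. Monocyte and macrophage markers in untreated TNF-KO spleens averaged 2.38 to 2.66, all below the CpG-treated TNF-KO values.

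**Figure D4:**
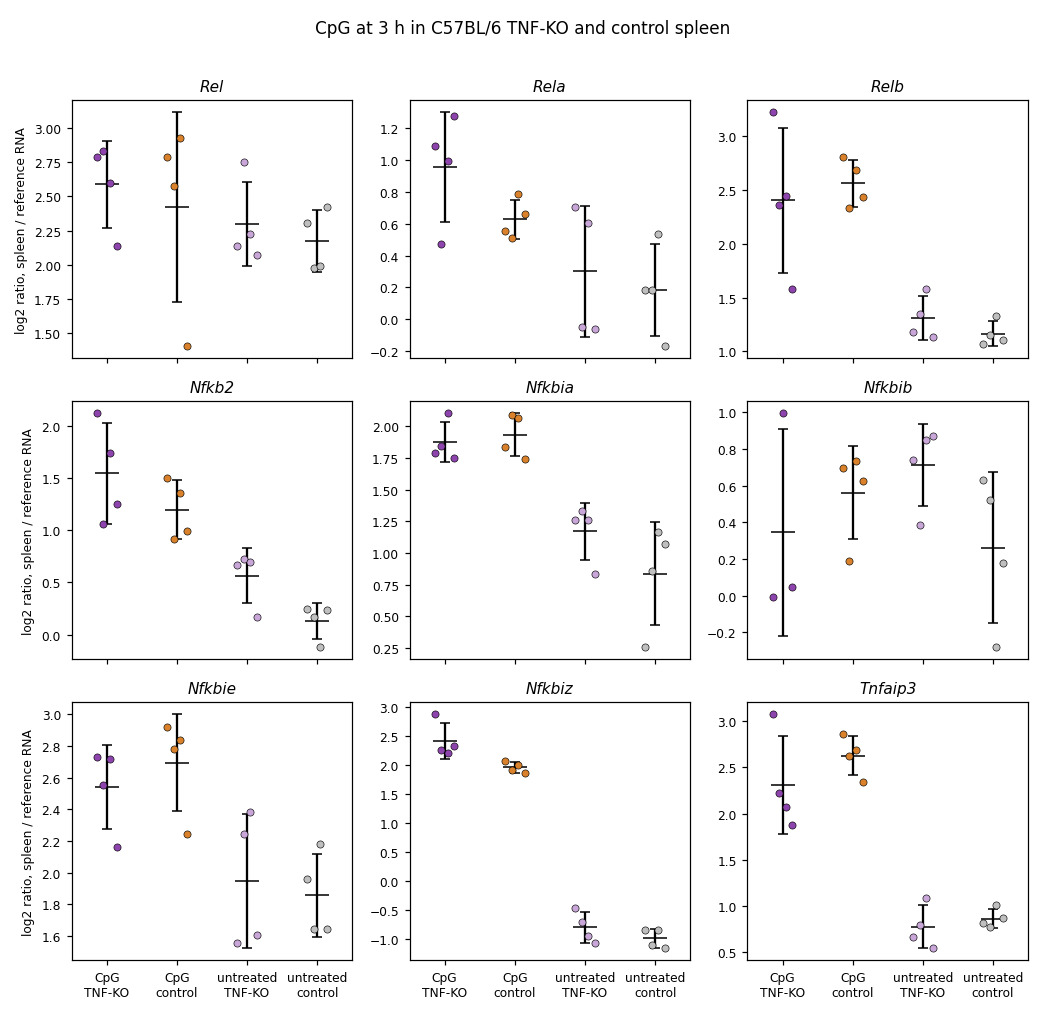
Log2 ratio of spleen to reference RNA (vertical axis, own range in each panel) for 9 genes in C57BL/6 spleens: CpG-treated TNF-KO, CpG-treated control, untreated TNF-KO and untreated control. Dots are arrays and bars mean ± SD; Nfkbiz, Tnfaip3, Relb and Nfkb2 are higher after CpG than untreated in both genotypes with no overlap. In TNF-KO the Relb values nearly touch (lowest 1.5824 after CpG, highest 1.5816 untreated).

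Between strains, none of the 9 genes differed in its CpG response at 3 h, C57BL/6 control minus BALB/c, when 0.453% of all genes did. Nfkbiz, Rel and Tnfaip3 had the largest differences, -0.70 (95% interval -1.28 to -0.13), -0.73 (-1.55 to 0.10) and -0.66 (-1.30 to -0.01), with adjusted p of 0.58 to 0.842, and 2 of the 9 genes had an unadjusted p under 0.05. None passed between untreated C57BL/6 control and untreated BALB/c spleens, when 14.5% of all genes did, and 5 of the 9 had an unadjusted p under 0.05. Nfkbie came nearest, at 1.64 to 2.18 in C57BL/6 controls, against 0.73 to 1.59 in BALB/c, with no overlap (log2 change 0.75 ± 0.27; adjusted p = 0.0506), and Relb (0.57; adjusted p = 0.174) and Tnfaip3 (0.46; adjusted p = 0.153) did not overlap either. Several other settings put Nfkbie past the threshold (adjusted p of 0.0159 to 0.0488), and its other probe had a log2 change of -0.61 (adjusted p = 0.235). Neutrophil, T cell and dendritic cell markers were higher in untreated C57BL/6 controls than in untreated BALB/c spleens with no overlap (neutrophil 2.68 to 3.37, against 1.80 to 2.67), and their part was not tested. The array numbers of the 2 strains fall in separate runs, so strain and run cannot be told apart.

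Other genes of the pathway were read from lists of 69 genes, 60 of them tested. The counts of rises below stand beside 3.01% of all genes rising at 1 h and 6.82% at 3 h. Of the 10 tested IKK and upstream kinase genes, Map3k8 rose at 1 h (log2 change 1.92 ± 0.22; adjusted p = 2.09e-07), and at 3 h 3 rose, Map3k8 (2.03 ± 0.22), Ikbke (1.00 ± 0.20) and Tbk1 (0.70 ± 0.16). Map3k8 encodes the kinase Tpl2, which is bound by p105. Of 13 TLR9 and TNF receptor adaptors, 3 rose at 1 h and 5 at 3 h, with 0 falls at either time. Birc3 (1.58 ± 0.19), Traf1 (1.84 ± 0.26) and Myd88 (1.42 ± 0.21) led at 3 h, the first 2 encoding proteins of the TNF receptor complex. Of the 3 other I-kappa-B-like genes, Nfkbid rose at 0.5 h (0.95 ± 0.21) and 1 h (1.74 ± 0.21), and Bcl3 rose at 1 h (0.95 ± 0.23). Of 13 feedback and ubiquitin genes, 2 rose at 1 h, Tnip1 (1.43 ± 0.26), which encodes a partner of A20, and Zc3h12a (1.05 ± 0.26), and 3 at 3 h.

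Of 18 tested textbook target genes, 5 rose at 0.5 h, 13 at 1 h, 14 at 3 h, 10 at 9 h and 5 at 24 h, and at 72 h 4 rose and 1 fell. Over all genes 0.249% rose at 0.5 h, 4.19% at 9 h, 6.81% at 24 h and 6.43% at 72 h, when 4.16% fell. The median log2 change of these 18 was 2.53 at 1 h and 1.68 at 3 h, beside 0.05 and -0.03 over all genes. Ccl4 (4.75 ± 0.25), Cxcl1 (5.21 ± 0.29) and Il12b (3.57 ± 0.18) had the smallest p at 1 h; the first 2 encode chemokines and Il12b a subunit of interleukin 12. At 72 h Traf6 (-0.83 ± 0.21), Prkcb (-0.70 ± 0.18) and Malt1 (-0.59 ± 0.17) fell. Prkcb and Malt1 are 2 of the 3 tested genes of the antigen receptor branch, of which 0 passed over untreated at an earlier time. None of these 18 rose after control ODN, and Myd88 (1.01 ± 0.21; adjusted p = 0.0241) was the 1 gene of the 60 that did, beside 1.05% of all genes. Of the 18, 9 rose in TNF-KO spleens and 13 in controls at 3 h, with 0 falls in TNF-KO and 1 in controls (Vcam1, -1.04 ± 0.26), beside 3.42% of all genes rising in TNF-KO and 4.97% rising and 2.74% falling in controls. Tnf was among the 13 but not the 9. Tested directly, the CpG response was smaller in TNF-KO than in controls for 1 of the 18 and larger for 0. The 18 include Tnf, the targeted gene, for which a smaller response is built into the knockout design. Tnf averaged -0.23 untreated and -0.17 after CpG in TNF-KO spleens, against 0.69 and 3.91 in controls. Of all genes, 0.0268% differed in response in either direction.

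Patterns over the 12 group means were compared with 14197 other genes, as a description with no test, since the means share a reference RNA and runs. The pattern most like that of Nfkbia was Errfi1 (Pearson r = 0.967 over 12 group means), and Errfi1 was also nearest to Tnfaip3 (0.963), followed by Dusp1 (0.961). Nfkbiz was closest to Ifrd1 (0.963), Gadd45b (0.956) and Ccl4 (0.955). Nfkb2 and Rela had the same nearest gene, Bcar1 (0.951 for Nfkb2). Relb was nearest to Arhgap22 (0.965), Rel to Cxcl1 (0.895), Nfkbie to Mob3c (0.960) and Nfkbib to Fbxl16 (0.956). By Spearman correlation Bcar1 for Nfkb2, Fbxl16 for Nfkbib and Errfi1 for Tnfaip3 were again nearest. Bcar1 for Rela and Mob3c for Nfkbie tied with another gene (Bcl6 and Mcam). The nearest was another gene for Nfkbia (Birc3), Relb (Cd83) and Rel (Klf6), and for Nfkbiz Rbms1, Jdp2 and Map3k8 tied.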

How the data were processed

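The authors deposited 1 column of log2 ratios per array, spleen (Cy5) over reference (Cy3). By the series' design text, they background-corrected the spots, dropped flagged ones and those dim in both channels, log2-transformed the ratios, lowess-normalised them and kept genes found on over 70% of arrays (BRB ArrayTools). Signal over background cannot be read from ratios. Of 36607 probes, 30750 had values and 26926 had 1 gene symbol in the platform annotation, 203 several and 9478 none; symbols were updated through RefSeq. Each array was centred on its median (-0.02 to 0.02 before). One probe stood for each gene, the one with most values. limma 3.58.1 (R 4.3.3) was fitted over all genes, within BALB/c (34 arrays), within C57BL/6 (16) or over all 50 for strains, with Benjamini-Hochberg adjustment over all genes and a threshold of 0.05; the script was tested on simulated data. The number of arrays limits the precision.

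All listed genes are named. Patterns most like a gene are its highest Pearson correlations among genes on at least 90% of arrays. The members and lists were chosen with earlier results of these data known. Alternatives were other centring, scaling, presence filters, probe rules, weights, eBayes settings, blocks, fits and single arrays left out; the other Nfkbie probe was added after seeing the data. A gap of over 10 in array numbers started a new run. Nfkb1 and promoters of Relb and Nfkbiz were not analysed here.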

Additional observations from a re-analysis of the deposited data

Results flagged for a closer look

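Sets of 4 to 6 spleen values, each of 1 probe in 1 group, were examined for all probes of the 9 genes, both Nfkbie probes included. In 8 of 112 sets, 1 value lay far from the others by Dixon's criterion, and chance gives about 5%. The sets share the same arrays. Replicate 3 at 0.5 h was low for Relb (0.61, the others 1.48 to 1.65) and for Rela (0.031, the others 0.30 to 0.35). Replicate 4 of untreated TNF-KO was low for Nfkb2 (0.17, the others 0.67 to 0.73) and for Nfkbia (0.84, the others 1.26 to 1.33). Replicate 3 at 72 h was high for Nfkbib (0.45, the others 0.15 to 0.18) and low for Rela (-0.69, the others -0.38 to -0.33). Nfkbia was low in replicate 4 at 24 h (-0.40, the others 0.04 to 0.12). Rela was low in control ODN replicate 4 (-0.0121, the others 0.72 to 0.87).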

How the results depend on the processing

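Counts are of the 9 genes passing limma at an adjusted p under 0.05. Leaving out 1 spleen at a time gave 3 to 3 at 0.5 h, 4 to 8 at 1 h, 5 to 7 at 3 h, 1 to 3 at 9 h, 0 to 1 at 24 h, 1 to 2 at 72 h, 0 to 2 for control ODN, 4 to 4 for CpG over control ODN, 0 to 2 for 1 h over 0.5 h, 2 to 3 for 9 h over 3 h, 2 to 4 for 24 h over 9 h, 3 to 5 in TNF-KO, 5 to 6 in C57BL/6 controls and 0 to 2 between untreated strains. It gave 0 throughout for 3 h over 1 h, 72 h over 24 h, the difference of responses by genotype or strain, and both TNF-KO against control comparisons, as did every other setting tried. Scaling arrays to the same spread gave 5 at 1 h, 2 at 72 h, 0 for control ODN, 0 for 1 h over 0.5 h, 5 for 9 h over 3 h and 1 between untreated strains. For CpG over control ODN the settings other than left-out arrays gave 3 to 5. Array weights gave 2 at 24 h, 4 at 72 h, 2 for control ODN and 2 between untreated strains. The replicate block gave 5 at 1 h, 1 at 9 h, 2 at 72 h, 0 for control ODN and 1 for 1 h over 0.5 h. The main fit does not pair spleens by number. Over 68 same-numbered pairs the correlation of deviations was -0.315 to 0.458, and 31 were over 0.1. In 20 of the 68 the own number was the best partner, which does not settle whether the numbers pair the spleens. The run as a fixed block gave 4 at 3 h, 1 at 9 h and 0 at 24 h, and as a random block 0 for control ODN and 1 between untreated strains. Fitting only the compared groups gave 1 at 9 h, 0 at 24 h, 0 for control ODN, 0 for 1 h over 0.5 h, 5 for 9 h over 3 h, 2 in TNF-KO and 3 between untreated strains. A minimum of 2-fold gave 1 at 9 h, 0 at 24 h and 0 at 72 h. Averaging all probes of a gene gave 2 at 72 h and 0 for control ODN, and testing all named probes 0 for control ODN. Keeping only genes on every array of a fit gave 0 for control ODN and 1 between untreated strains. This left out Nfkb2, Rel and Nfkbib within BALB/c and over all 50 arrays, and only Nfkbib within C57BL/6. No centring and robust eBayes each gave 1 between untreated strains. Nfkbie at 1 h reversed with its other probe (-0.17; adjusted p = 0.875), which has 2 arrays there. Other causes were not tested.

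Over all genes, the calls under the other settings ran over these ranges (main setting in brackets): 264 to 1000 at 1 h (505), 596 to 2599 at 3 h (1520), 185 to 1788 at 9 h (1063), 160 to 1947 at 24 h (1287), 331 to 5667 at 72 h (1616), 27 to 85 at 0.5 h (39), 0 to 1426 for control ODN (216), 878 to 3934 for CpG over control ODN (2789), 350 to 721 in TNF-KO (560), 514 to 1511 in C57BL/6 controls (1153), 10 to 229 between untreated genotypes (83), 22 to 154 between CpG-treated genotypes (54), 1 to 7 for the difference of responses by genotype (4), 40 to 110 by strain (69) and 650 to 2924 between untreated strains (2215). Between neighbouring times they were 46 to 262 for 1 h over 0.5 h (106), 384 to 3055 for 3 h over 1 h (1541), 57 to 498 for 9 h over 3 h (153), 126 to 1655 for 24 h over 9 h (1057) and 261 to 1708 for 72 h over 24 h (508). Leaving out 1 spleen at a time moved some of these counts, and the shares of all genes printed beside the 9, by over 1.5 times: 21 to 52 for 0.5 h, 287 to 558 for 1 h, 605 to 2191 for 24 h, 677 to 2546 for 72 h, 0 to 2116 for control ODN, 1622 to 3541 for CpG over control ODN, 48 to 103 for 1 h over 0.5 h, 907 to 1759 for 3 h over 1 h, 77 to 169 for 9 h over 3 h, 309 to 2091 for 24 h over 9 h, 201 to 701 for 72 h over 24 h, 766 to 1123 for C57BL/6 controls, 351 to 694 for TNF-KO, 2 to 376 for untreated genotypes, 20 to 100 for CpG-treated genotypes and 2 to 8 for the genotype difference of responses. Signal over background is not given by ratios.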
